A study of Mus musculus with 28 samples.

Results

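The collagen chains are the genes whose products assemble into the collagens, and 42 of them were read on these arrays among 17097 genes with a probe set of their own. A gene was taken as a collagen chain where its symbol had the form Col, a number, a and a number, and where at least 1 probe set carried that symbol and no other. The 42 chains had 68 such probe sets, at most 3 for a gene, and each chain was followed by the probe set with the highest mean over the 28 arrays. 11 chains were fibrillar, 8 belonged to basement membranes and 23 were other chains, of which 9 were fibril-associated (FACIT), 5 beaded filament, 4 transmembrane, 3 short chain, 1 an anchoring fibril chain and 1 unclassified. All values below are log2 expression values, so that a difference of 1 is a doubling, and levels were not compared between probe sets of different genes. A chain was called low where its mean over the arrays was below 4.41, the median of all probe sets, and 14 of the 42 chains were low.

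Collagens are built from chains that fold around each other into a triple helix. Fibrillar chains such as Col1a1, Col1a2 and Col3a1 are secreted as procollagens, trimmed, packed into fibrils and cross-linked, and they are the main product of connective tissue fibroblasts. Type IV chains form the sheet-like network of basement membranes, whereas FACIT chains decorate fibrils and type VI chains form beaded microfibrils around cells.

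Mouse embryonic fibroblasts (MEFs), primary cells grown from embryos of day 13.5, were WT, p53-/- or p66-/-. The p53-/- cells lack the p53 tumour suppressor in every cell, and the p66-/- cells lack p66, the longest product of the Shc1 gene. Cells of each genotype were untreated or exposed to 400 µM H2O2 for 4 h, with 4 arrays in each of these 6 groups, and WT and p66-/- cells were also exposed for 4 h to 0.25 µg/ml Doxo (doxorubicin, a topoisomerase poison that breaks DNA), with 2 arrays each. The labels name strain C57Bl/6 for all 8 groups, where the study's text names sv129, and call the arrays biological replicates, and the study describes the MEFs as separate preparations, so each group holds several cultures of cells that were mixed and not sorted. No Doxo array of p53-/- cells was analysed here.

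Several measurements bear on the groups before any collagen is considered. Atf3 and Gadd45a, stress genes that respond to H2O2, were at 5.79 ± 0.15 and 6.69 ± 0.41 (SD, n = 4) in untreated WT cells and at 8.64 ± 0.39 and 9.90 ± 0.36 after H2O2. In p53-/- cells the order was turned, with Atf3 at 8.88 ± 0.36 where the label says untreated and 5.98 ± 0.31 where it says H2O2, and Gadd45a at 9.62 ± 0.32 and 6.57 ± 0.27. H2O2 results of p53-/- cells are therefore given by the labels and with the p53-/- treatment labels exchanged. The Shc1 probe set read 7.85 ± 0.08 in untreated WT and 8.39 ± 0.19 in untreated p66-/- cells. Which Shc1 products that probe set reads was not examined, so its values do not check the p66 deletion. The arrays also fell into sets by the lys spike-in, an added control RNA, which read 5.02 to 6.22 on replicates 1 and 2, 3.2 to 4.13 on replicates 3 and 4, and 3.95 to 4.46 on the 4 Doxo arrays. The bioB spike-in read 7.91 to 8.17 on the Doxo arrays and 6.62 to 7.68 on the other 24, so the Doxo treatment and its array set cannot be told apart. Of the markers of the labelled cell type, all 9 fibroblast genes measured were above the low limit in level. Among markers of other cells, 5 of 8 cartilage, 5 of 6 endothelial, 2 of 4 bone, 2 of 7 skeletal muscle, 0 of 4 smooth muscle, 1 of 6 macrophage, 2 of 6 epithelial and 1 of 4 neural genes were low.

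The upstream sequences of 4 chains are shown because the results turn on them: Col11a1, Col8a1 and Col3a1 were lower after Doxo, and Col18a1 was higher after Doxo and read lower on every p53-/- than on every WT array. Each run is the 250 bases before the transcription start in RefSeq (GRCm38.p6), read along the gene's strand, and covers chr3:114030290-114030539 (plus strand) for Col11a1, chr16:57754738-57754987 (minus strand) for Col8a1, chr1:45311288-45311537 (plus strand) for Col3a1 and chr10:77166531-77166780 (minus strand) for the outer of 2 starts of Col18a1. Capitals mark the CCAAT box (CCAAT, or ATTGG on the opposite strand), the GC box core (GGGCGG, or CCGCCC) and the TATA box (TATAAA).
Col11a1: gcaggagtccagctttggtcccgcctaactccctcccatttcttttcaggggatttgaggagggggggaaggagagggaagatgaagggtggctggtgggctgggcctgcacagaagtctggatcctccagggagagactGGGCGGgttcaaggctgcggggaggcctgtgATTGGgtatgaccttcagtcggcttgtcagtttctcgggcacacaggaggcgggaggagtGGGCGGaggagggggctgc
Col8a1: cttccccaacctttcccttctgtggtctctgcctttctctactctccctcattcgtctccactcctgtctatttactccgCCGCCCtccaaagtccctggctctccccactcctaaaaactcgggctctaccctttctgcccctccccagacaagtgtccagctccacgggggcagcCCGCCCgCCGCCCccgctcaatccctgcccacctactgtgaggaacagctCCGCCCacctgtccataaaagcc
Col3a1: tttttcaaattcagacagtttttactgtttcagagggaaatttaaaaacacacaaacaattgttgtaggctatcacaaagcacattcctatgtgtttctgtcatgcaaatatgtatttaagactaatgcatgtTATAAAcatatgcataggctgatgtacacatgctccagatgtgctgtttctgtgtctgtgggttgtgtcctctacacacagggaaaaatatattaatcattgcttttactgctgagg
Col18a1: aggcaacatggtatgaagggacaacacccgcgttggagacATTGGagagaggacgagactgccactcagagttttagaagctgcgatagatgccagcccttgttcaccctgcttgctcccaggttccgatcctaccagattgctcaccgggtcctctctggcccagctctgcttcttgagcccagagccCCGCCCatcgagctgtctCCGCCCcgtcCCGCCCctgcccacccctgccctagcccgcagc
In these letters Col11a1 carried 1 CCAAT and 2 GGGCGG matches, Col8a1 carried 4 GGGCGG matches, Col3a1 carried 1 TATAAA match, and Col18a1 carried 1 CCAAT and 3 GGGCGG matches, while the other Col18a1 window (chr10:77113706-77113955) held none of the letters searched. The table held 36 windows of 300 bases, from 250 before to 50 after the start, for 33 of the 42 chains. On either strand GGGCGG occurred in 22 of these windows (61.1%) and in 35.7% of all 32851 windows of the same length, CCAAT in 13 (36.1%) against 37.4% of all, and TATAAA in 5 (13.9%) against 13.6% of all. GGGCGG was found in 6 of 8 fibrillar, 5 of 8 basement membrane and 11 of 20 other windows. Such matches describe the letters and are not evidence of a bound factor.

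To see how the collagen chains answered DNA damage, the Doxo arrays of each genotype were set against its untreated arrays. The clearest changes were falls. Col11a1, the fibrillar chain that helps to start thin fibrils, fell by 3.16 on the log2 scale in WT and fell by 3.71 in p66-/- cells, and Col8a1, a short chain collagen of vessel walls and matrix networks, changed by -2.37 and -2.78. Col1a2, Col5a2 and Col4a5 also fell in both genotypes. Col1a1, the main type I chain, differed by -0.15 and 0.09 and was not called. A call means a Benjamini-Hochberg adjusted p under 0.05 in limma over 45037 probe sets. By that rule 13 of 42 chains were called in WT cells, 8 up and 5 down, when 43.1% of all genes were called (27.0% up and 16.1% down). Among p66-/- arrays 12 chains were called, 6 up and 6 down, against 49.2% of all genes (32.6% up and 16.5% down). The shares of chains called were therefore below those of all genes for rises and close to them for falls.

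**Figure D1:**
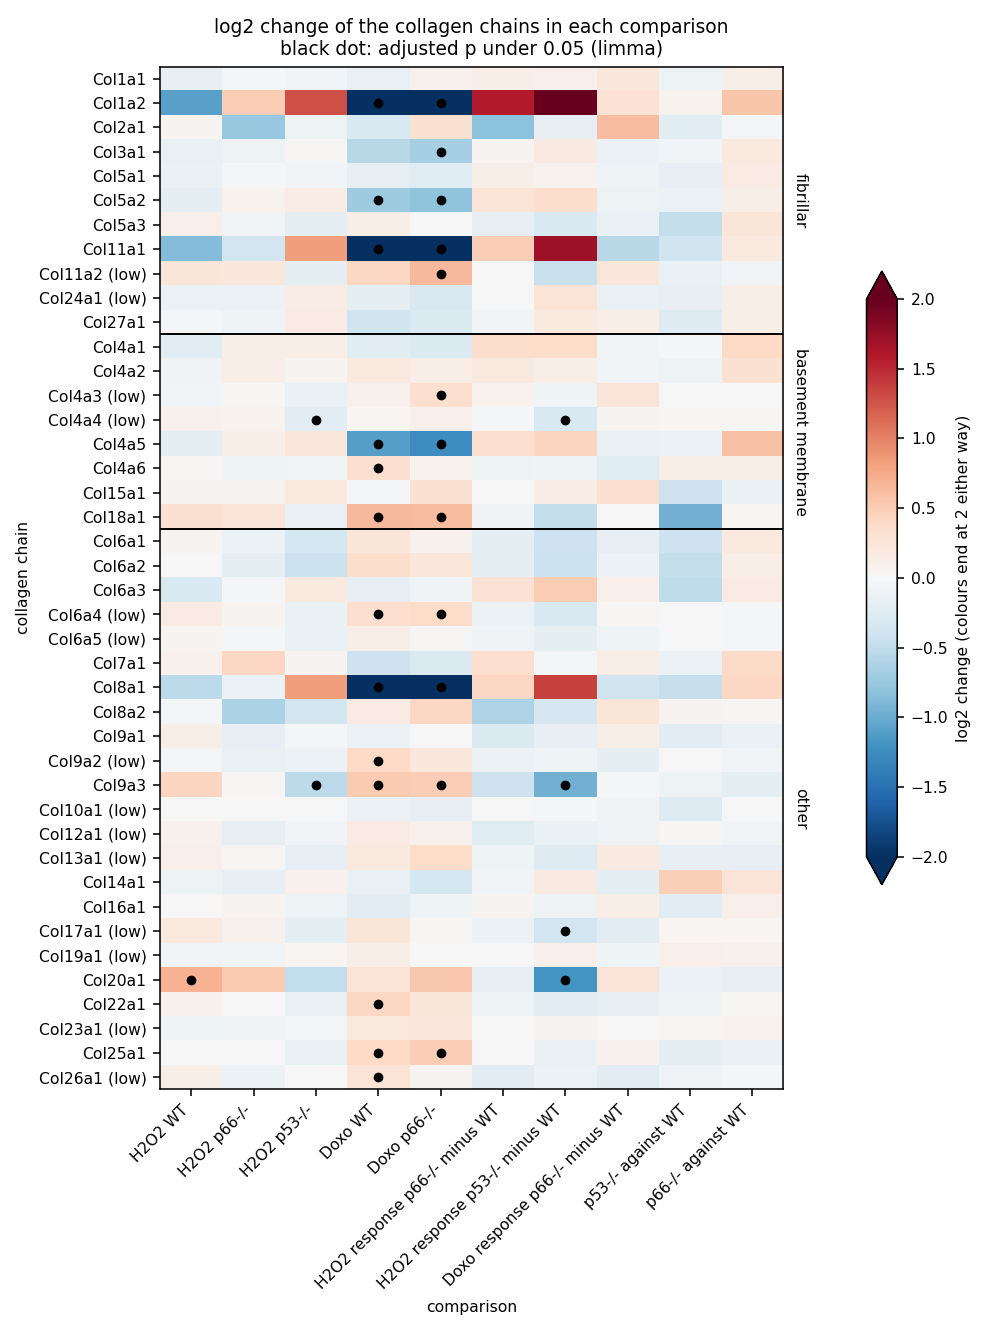
Log2 change of each of the 42 collagen chains (rows, by class) in the 10 comparisons (columns), with colour for the size and direction of the change, a black dot where limma's adjusted p was under 0.05, and "low" beside chains whose mean level was below 4.41. Dots are most frequent in the 2 Doxo columns, with 13 in WT and 12 in p66-/- cells.

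The fibrillar chains had the lowest median of the 3 classes after Doxo in both genotypes. In WT cells 3 of 11 fibrillar chains fell and 0 rose, with a median change of -0.31, whereas the 8 basement membrane chains had 2 rises, 1 fall and a median of 0.06, and the 23 other chains had 6 rises, 1 fall and a median of 0.19. In p66-/- cells the fibrillar chains had 1 rise, 4 falls and a median of -0.27, the basement membrane chains 2 rises, 1 fall and a median of 0.12, and the other chains 3 rises, 1 fall and a median of 0.08. The 1 fibrillar rise was Col11a2, a low probe set. The median over all genes was 0.19 in WT and 0.21 in p66-/- cells. The fibrillar median in WT depended on the arrays used as reference, and was -0.68 against untreated replicates 1 and 2 and -0.05 against untreated replicates 3 and 4.

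Col11a1 was at 9.40, 10.46, 8.55 and 7.79 in the 4 untreated WT cultures and at 6.48 and 5.30 after Doxo. The p66-/- cultures were at 9.42, 10.21, 8.11 and 8.25 untreated and at 5.55 and 5.02 after Doxo. No treated array reached an untreated one in either genotype, although the untreated values themselves spread widely. The level was 8.96-fold lower in WT (SE of the log2 change 1.0, limma adjusted p = 0.018) and 13.1-fold lower in p66-/- cells (SE 1.0, adjusted p = 0.0057). A second Col11a1 probe set changed by -2.17 in WT (adjusted p = 0.078 in limma) and by -2.51 in p66-/- cells (adjusted p = 0.039). The WT call was lost without WT untreated replicate 2 and without WT Doxo replicate 2.

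Col8a1 was at 10.33, 10.67, 10.03 and 9.61 in untreated WT cells and at 8.23 and 7.34 after Doxo. The p66-/- cultures gave 10.81, 11.04, 9.81 and 9.85 untreated against 7.76 and 7.44 after Doxo, again with no overlap. The changes of -2.37 (SE 0.49, limma adjusted p = 0.00092) and -2.78 (SE 0.49, adjusted p = 0.00018) kept their call without any 1 of the arrays. Its 2 other probe sets changed by -1.49 and -1.0 in WT and by -1.68 and -1.54 in p66-/- cells.

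Col1a2, the second chain of type I collagen, was at 6.07, 6.48, 4.88 and 5.54 in untreated WT cells and at 3.22 and 3.23 after Doxo, a change of -2.52 (SE 0.67, limma adjusted p = 0.0063). Without p66 it went from 4.87, 7.03, 5.18 and 4.97 to 3.68 and 2.89, a change of -2.23 (SE 0.67, limma adjusted p = 0.012). The groups did not overlap in either genotype. Col1a2 was read by a single dim probe set with a mean of 5.10 over the arrays, so its values are less certain than those of the bright chains, and its change was not set against that of Col1a1. Brighter probe sets of Col1a2 may be among those without a symbol here. Col1a1, read by a bright probe set, stood at 10.79, 11.20, 10.39 and 10.67 in untreated WT cells and at 10.56 and 10.67 after Doxo, and the groups overlapped.

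Col4a5, a type IV chain, was at 8.72, 8.29, 8.54 and 7.95 in untreated WT cells and at 7.74 and 6.81 after Doxo. Its p66-/- values were 9.04, 9.20, 8.38 and 8.57 untreated and 7.60 and 7.51 after Doxo. All 4 treated arrays lay below every untreated one of their genotype, and the changes were -1.10 in WT (SE 0.36, limma adjusted p = 0.023) and -1.24 in p66-/- cells (SE 0.36, adjusted p = 0.010). The type IV chains Col4a1 and Col4a2, which pair with each other and lie head to head on chromosome 8, changed by -0.23 and 0.19 in WT and by -0.28 and 0.14 in p66-/- cells, and were not called.

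Col5a2 and Col3a1, fibrillar chains read by bright probe sets with means of 12.30 and 12.29, gave smaller changes. Col5a2 was at 12.60, 12.66, 12.35 and 12.37 in untreated WT cells and at 11.86 and 11.71 after Doxo, a change of -0.71 (SE 0.18, limma adjusted p = 0.0053). The p66-/- arrays read 12.57, 12.75, 12.27 and 12.32 untreated and 11.61 and 11.72 after Doxo, a change of -0.81 (SE 0.18, limma adjusted p = 0.0016). Col3a1 went from 12.59, 12.95, 12.32 and 12.39 to 11.94 and 11.86 in p66-/- cells, a change of -0.66 (SE 0.26, adjusted p = 0.044 in limma), while in WT the change was -0.55 (SE 0.26, adjusted p = 0.097). No Col5a2 or Col3a1 array after Doxo overlapped the untreated arrays of its genotype. The dimmer probe sets of these bright genes showed larger changes, -2.15 and -2.31 for Col5a2 (mean 9.50) and -2.07 and -1.89 for Col3a1 (mean 8.83), in WT and p66-/- cells respectively. Of the other main fibroblast chains, none was called after Doxo: the fibrillar Col5a1 changed by -0.16 in WT and -0.24 in p66-/- cells, the type VI chains Col6a1 by 0.24 and 0.08, Col6a2 by 0.35 and 0.23 and Col6a3 by -0.16 and -0.07, and the FACIT chain Col12a1, a single low probe set, by 0.17 and 0.09. Among the 21 chains with several probe sets, the dimmest was lower than the brightest in 9 in each genotype, and the signs were opposite in 5 chains in WT and 4 in p66-/- cells.

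**Figure D2:**
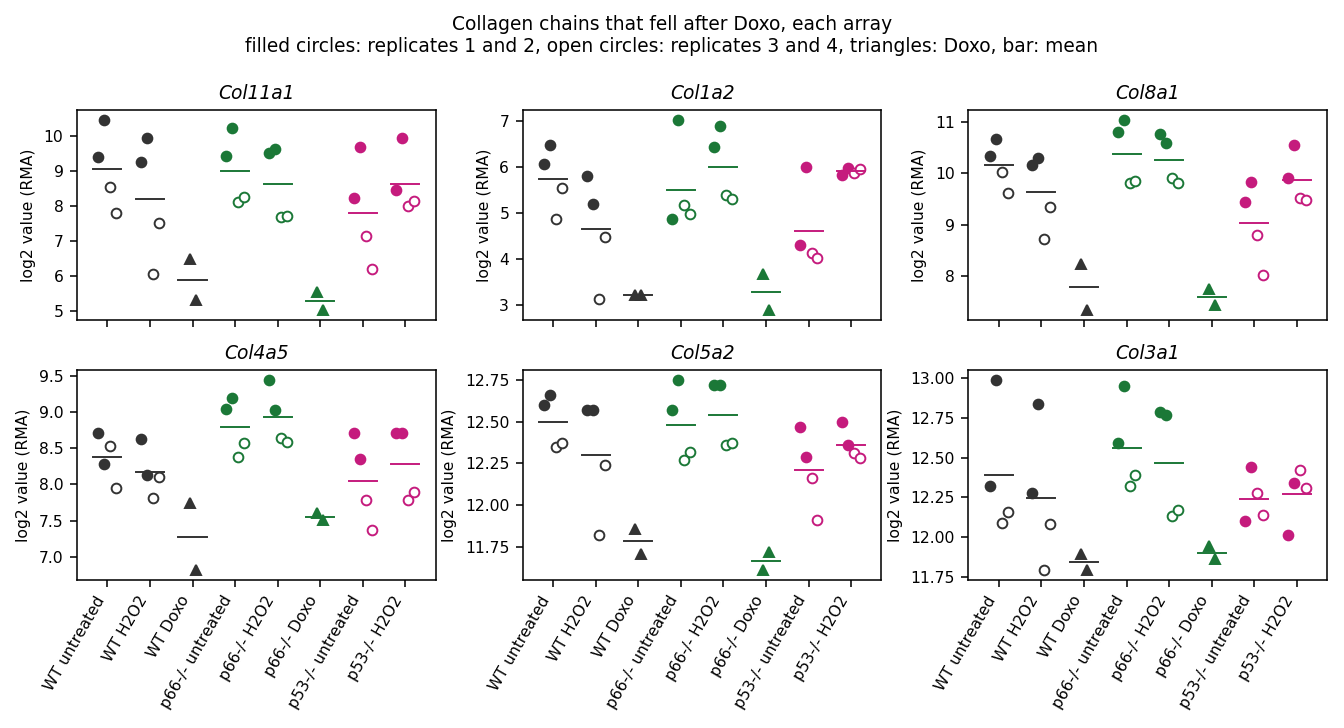
Log2 level on each array of the 8 groups for Col11a1, Col1a2, Col8a1, Col4a5, Col5a2 and Col3a1. Filled circles are replicates 1 and 2, open circles replicates 3 and 4, triangles Doxo arrays, and bars group means. Every Doxo array lies below every untreated array of its genotype in each panel, and the open circles tend to lie below the filled ones.

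The array set moved with these falls among cells that never received Doxo. Over the 6 groups of untreated and H2O2-treated cells, the mean log2 difference of replicates 3 and 4 from replicates 1 and 2 was -1.91 for Col11a1, -1.01 for Col1a2, -0.96 for Col8a1, -0.63 for Col4a5, -0.34 for Col5a2 and -0.34 for Col3a1. The difference ran the same way in 6 of 6 groups for Col11a1, Col8a1, Col4a5 and Col5a2, and in 5 of 6 for Col1a2 and Col3a1. Set against untreated replicates 3 and 4 alone, a reference chosen after seeing the data, Col8a1 kept its call, with changes of -2.03 in WT (limma adjusted p = 0.0080) and -2.23 in p66-/- cells (adjusted p = 0.0051), and so did Col5a2, with -0.57 (adjusted p = 0.039) and -0.63 (adjusted p = 0.030). On that reference the calls of the other chains that had fallen were lost: Col11a1 differed by -2.28 in WT (adjusted p = 0.13 in limma) and -2.89 in p66-/- cells (adjusted p = 0.063), Col1a2 by -1.98 (adjusted p = 0.058) and -1.79 (adjusted p = 0.096), and Col4a5 by -0.97 (adjusted p = 0.090) and -0.92 (adjusted p = 0.12). Col3a1, called in p66-/- cells alone, differed there by -0.46 (limma adjusted p = 0.24). Against untreated replicates 1 and 2 alone, also chosen after seeing the data, all of these chains were called down in both genotypes, with larger changes. Col11a1 differed by -4.04 in WT (limma adjusted p = 0.0078) and -4.53 in p66-/- cells (adjusted p = 0.0023). Col3a1 differed by -0.82 in WT (limma adjusted p = 0.028). Fibroblast markers were read beside the falls. The log2 values of the 9 markers summed to 84.7 to 91.3 on untreated and 81.5 to 84.9 on Doxo WT arrays, with overlap. In p66-/- cells the sums were 87.0 to 89.5 and 83.2 to 84.1, without overlap. The median change over the 9 was -0.40 in WT and -0.17 in p66-/- cells. In each genotype 2 of the 9 were called down, when 16.1% of all genes were in WT and 16.5% in p66-/- cells. Prrx1 was called in both, Vim in WT and Fn1 in p66-/- cells. Several calls also rested on single arrays. Without Doxo replicate 2, Col8a1 was the 1 chain still called down in WT, and Col8a1 and Col5a2 were those in p66-/- cells. Col4a5 lost its call in WT without untreated replicate 1 and in p66-/- cells without Doxo replicate 1, and the p66-/- call of Col3a1 was lost without untreated replicate 1 or 2 or either Doxo array. Fewer cells of a type and less RNA per cell cannot be told apart in such bulk samples, and the part of marker level in the falls was not tested.

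Rises after Doxo were smaller. Col18a1, the chain whose C-terminal fragment is endostatin, was at 7.22, 7.28, 7.09 and 7.53 in untreated WT cells and at 7.84 and 8.01 after Doxo, a rise of 0.65 (SE 0.22, limma adjusted p = 0.025). The p66-/- arrays went from 7.21, 7.63, 7.35 and 7.23 to 7.85 and 8.13, a rise of 0.63 (SE 0.22, limma adjusted p = 0.024), with no overlap in either genotype. The Col18a1 call was lost in WT without untreated replicate 3 or either Doxo array, in p66-/- cells without untreated replicate 1 or Doxo replicate 2, and in both against untreated replicates 3 and 4 alone, where the changes were 0.62 (limma adjusted p = 0.088) and 0.70 (adjusted p = 0.062). Against untreated replicates 1 and 2 alone it was lost in both too, with changes of 0.68 (limma adjusted p = 0.052) and 0.57 (adjusted p = 0.079). The transmembrane chain Col25a1 rose by 0.40 in WT and 0.49 in p66-/- cells, the FACIT chain Col9a3 by 0.53 and 0.49, and the beaded filament chain Col6a4, a low probe set, by 0.34 and 0.37. With the mean of all probe sets of a gene, Col18a1 and Col6a4 stayed called up in both genotypes, and Col25a1 and Col9a3 in neither. Col22a1, Col26a1, Col4a6 and Col9a2 were called up in WT, by 0.28 to 0.41, and Col11a2 and Col4a3 in p66-/- cells, by 0.65 and 0.33. Of these, Col26a1, Col9a2, Col11a2 and Col4a3 were low probe sets. Markers of other cells also moved after Doxo. The median change over a marker list was 0.94 in WT and 0.42 in p66-/- cells for macrophage, 0.46 and 0.68 for epithelial, 0.37 and 0.53 for skeletal muscle, 0.20 and 0.23 for cartilage, 0.13 and 0.27 for bone, 0.22 and 0.13 for endothelial, 0.16 and 0.13 for neural and -0.20 and -0.47 for smooth muscle genes. The summed log2 values of the epithelial markers lay between 27.3 and 29.9 on untreated and between 31.3 and 32.8 on Doxo WT arrays, and between 28.1 and 31.6 and between 33.5 and 34.2 in p66-/- cells. The sums of the macrophage markers overlapped between untreated and Doxo arrays in both genotypes. Those of the cartilage, skeletal muscle, smooth muscle and neural markers overlapped in WT. The part of these markers in the rises was not tested. These rises also came with a shift of all genes, whose median was 0.19 in WT and 0.21 in p66-/- cells. After each array was shifted to a median deviation of 0, an alternative chosen after seeing the data, 0 chains were called up in either genotype and 5 in WT and 7 in p66-/- cells were called down, the same 5 in WT, and in p66-/- cells the same 6 and Col24a1. Over all genes that shift turned 4615 called up and 2747 down in WT into 2337 and 3199, and 5579 and 2828 in p66-/- cells into 2647 and 3421.

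The Doxo responses of the chains were close in value in WT and p66-/- cells. 5 chains fell in both genotypes (Col11a1, Col1a2, Col8a1, Col4a5 and Col5a2), 4 rose in both (Col18a1, Col25a1, Col9a3 and Col6a4), and 39 of 42 had changes of the same sign. Across the 42 chains, which are not independent replicates and share the array sets, Pearson's r between the changes was 0.972 and Spearman's rho 0.827. These counts and correlations were not taken over all genes, whose median change was 0.19 in WT and 0.21 in p66-/- cells. They therefore do not set the chains apart from other genes. The test of the difference between the responses called 0 chains and 0% of all genes in limma, with 0 chains at an unadjusted p under 0.05. With 2 Doxo arrays for each genotype the intervals were wide. The difference, p66-/- minus WT, was -0.55 for Col11a1 (95% confidence interval -3.47 to 2.37), -0.40 for Col8a1 (-1.85 to 1.04), -0.10 for Col5a2 (-0.64 to 0.44) and -0.01 for Col18a1 (-0.65 to 0.62), so the test does not show that the genotypes responded alike.

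**Figure D3:**
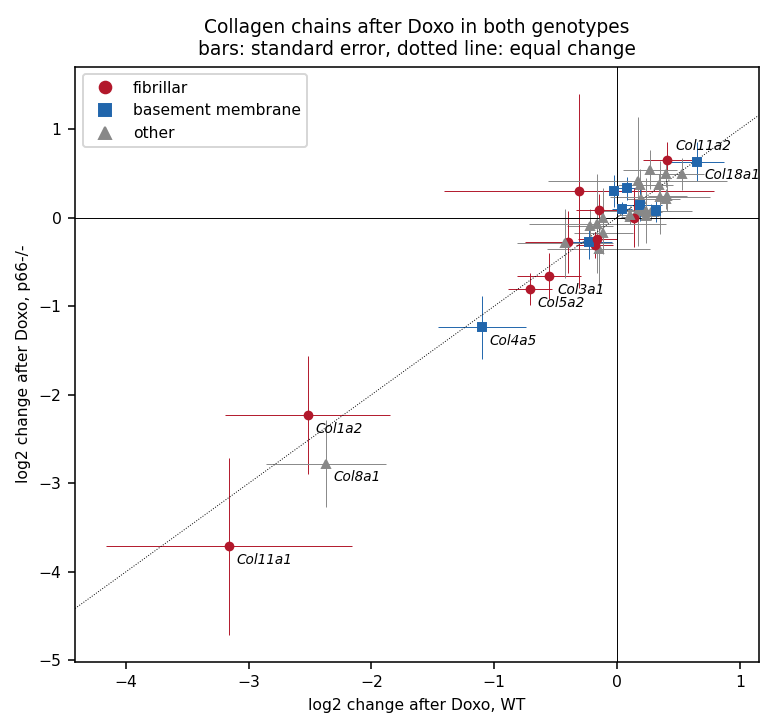
Log2 change after Doxo in WT (horizontal axis) against p66-/- cells (vertical axis) for the 42 collagen chains, coloured by class, with SE bars. Col11a1, Col8a1 and Col1a2 lie far below 0 in both genotypes, and 39 of the 42 chains have the same sign.

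Genes that act on collagens were read beside the chains. In the list of chaperones, modifying enzymes and export factors, 4 of 20 rose and 3 fell in WT after Doxo, and 11 rose and 3 fell in p66-/- cells, with medians of 0.22 and 0.40 beside 0.19 and 0.21 over all genes. These counts, and those of the lists that follow, stand beside 27.0% of all genes up and 16.1% down in WT and 32.6% up and 16.5% down in p66-/- cells, so that the WT folding counts were below those shares. The lysyl hydroxylase Plod3 rose by 0.45 (SE 0.13) in WT and 0.55 (SE 0.13) in p66-/- cells, and the prolyl 3-hydroxylase complex members P3h1 and Crtap rose by 0.49 and 0.30 in WT. After the arrays were shifted to a median of 0, the rises went to 0 in WT and 3 (P3h4, Plod3 and Ppib) in p66-/- cells. Those that fell belong to the COPII export route for large cargo: Sec23a changed by -1.72 in WT and -1.71 in p66-/- cells, Mia3 by -1.36 and -1.46, and Sec24d by -0.86 and -0.70. They remained called down after the shift, with P4ha3 added in both genotypes.

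Among 13 genes of propeptide cleavage and cross-linking, 3 rose and 2 fell in WT, and 3 rose and 3 fell in p66-/- cells, with medians of 0.36 and 0.27. Lox, the oxidase that starts cross-links, was at 11.54 to 12.28 (median 11.73) in untreated and 9.93 to 10.20 in Doxo-treated WT cells and changed by -1.76 (SE 0.40, limma adjusted p = 0.0021), and in p66-/- cells by -2.03 (SE 0.40, adjusted p = 0.00050). The procollagen C-proteinase relative Tll1 changed by -2.14 in WT and -2.99 in p66-/- cells, and Loxl4 rose by 0.64 and 0.80. After the shift to a median of 0 the counts were 0 up and 3 down in WT and 1 up and 3 down in p66-/- cells. In the list of receptors and fibril-bound proteoglycans 1 of 14 rose and 3 fell in each genotype, with medians of -0.00 and -0.01. The 3 that fell were collagen receptors: Ddr2, a receptor kinase for fibrillar collagen, at -2.29 in WT and -2.35 in p66-/- cells, Itgb1, the shared beta chain of the collagen-binding integrins, at -1.60 and -1.76, and Itga1 at -1.06 and -0.93. The member that rose was also a collagen-binding integrin chain, Itga2 in WT (0.31) and Itga10, a low probe set, in p66-/- cells (0.35). After the shift 0 rose and the same 3 fell in each genotype. Of 12 basement membrane partners of type IV collagen, 1 fell in WT, the linker Nid1 (-0.80, and -1.06 in p66-/- cells), and 2 rose and 4 fell in p66-/- cells, with medians of 0.18 and 0.25. The shift left 0 up and 3 down in WT and 0 up and 5 down in p66-/- cells.

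In the list of TGF-beta signals, the pathway best known for driving collagen transcription, 1 of 18 genes rose and 7 fell in WT, and 1 rose and 9 fell in p66-/- cells, with medians of -0.40 and -0.56. Ccn2, a matricellular target of the pathway, changed by -3.34 in WT (SE 0.33) and -3.55 in p66-/- cells (SE 0.33). The receptor Tgfbr1 changed by -2.83 and -2.78, the inhibitor Skil by -3.03 and -2.89, and the inhibitory Smad7 by -1.31 and -1.57, so that activating and restraining members fell together. After the shift to a median of 0 the counts were 0 up and 8 down in WT and 1 up and 9 down in p66-/- cells. The Doxo responses of the 2 genotypes share no arrays, but within a genotype all Doxo and H2O2 comparisons share the untreated arrays.

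To see whether oxidative stress changed the chains, the H2O2 arrays of each genotype were set against its untreated arrays. Few chains moved. In WT cells 1 of 42 chains was called, the FACIT chain Col20a1, when 4.95% of all genes were called. In p66-/- cells 0 chains were called in limma, with 1 at an unadjusted p under 0.05, against 0.0351% of all genes. By the labels, 2 chains were called down in p53-/- cells, against 5.88% of all genes, and with the p53-/- labels exchanged the same 2, Col4a4 and Col9a3, were called up. Same-numbered arrays of a genotype deviated together, and when the fit took these numbers as blocks the p53-/- count by labels was 4, with Col1a2 and Col8a1 called up beside the 2 falls. That count has no share of all genes under the same fit beside it.

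Col20a1 was at 4.30, 4.15, 4.36 and 4.37 in untreated WT cells and at 4.73, 5.15, 4.97 and 5.11 after H2O2. Every treated array was above every untreated one, and the rise was 0.69 (SE 0.18, limma adjusted p = 0.031). The call was lost in 7 of the 8 fits that left out 1 WT array, and it was kept without H2O2 replicate 1. It was 0.72 within replicates 1 and 2 and 0.67 within replicates 3 and 4. In p66-/- cells the values were 4.10, 4.12, 4.36 and 4.26 untreated and 4.20, 5.48, 4.70 and 4.57 after H2O2, a change of 0.53 that was not called, with replicate 2 standing highest. In p53-/- cells Col20a1 was at 4.59, 4.65, 4.89 and 4.99 where labelled untreated and at 4.28, 4.20, 4.16 and 4.50 where labelled H2O2.

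Col9a3, a FACIT chain of type IX collagen, was at 4.87, 5.46, 5.25 and 5.54 on the untreated p53-/- arrays by label and at 4.66, 4.94, 4.61 and 4.79 on the H2O2 arrays, a difference by labels of -0.53 (SE 0.15, limma adjusted p = 0.040). In WT cells it was at 4.91, 5.07, 4.91 and 4.73 untreated and at 5.32, 5.59, 5.26 and 5.17 after H2O2, without overlap but without a call. Col4a4, a low type IV chain, was at 3.26, 3.2, 3.15 and 3.10 on the untreated p53-/- arrays by label and at 3.02, 2.99, 2.92 and 2.88 on the H2O2 arrays, a difference of -0.23 (SE 0.07, adjusted p = 0.050 in limma). All 4 arrays labelled untreated were above all those labelled H2O2 for Col4a4, whereas for Col9a3 the groups overlapped.

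The difference between the H2O2 responses of p53-/- and WT cells was called for 4 chains by the labels, when 13.5% of all genes were. It was -1.19 for Col20a1 (SE 0.26, limma adjusted p = 0.0030), -0.96 for Col9a3 (SE 0.21, adjusted p = 0.0032), -0.39 for Col17a1 (SE 0.12, adjusted p = 0.037) and -0.31 for Col4a4 (SE 0.09, adjusted p = 0.029). Col17a1 and Col4a4 were low probe sets. With the replicate block 7 chains were called, a count without a share of all genes beside it. With the p53-/- labels exchanged 0 chains were called, when 7 of 17097 genes were. All differences of the chains then lay between -0.31 and 0.43. Between p66-/- and WT cells the test of the H2O2 response called 0 chains and 0% of all genes in limma, with 1 chain at an unadjusted p under 0.05. The H2O2 comparisons also left the other collagen genes largely uncalled. Ccn2 fell by 1.04 in WT cells and was higher by 1.21 in p53-/- cells by the labels, and its response differed by 2.25. With the p53-/- labels exchanged Ccn2 changed by -1.21 and the difference in response was -0.17. Plod3 (-0.55) and Itga10 (-0.66) differed in response between p53-/- and WT cells by the labels, with 0.13 and 0.05 once these were exchanged, and 0 members of the basement membrane and cross-linking lists were called in any H2O2 comparison.

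**Figure D4:**
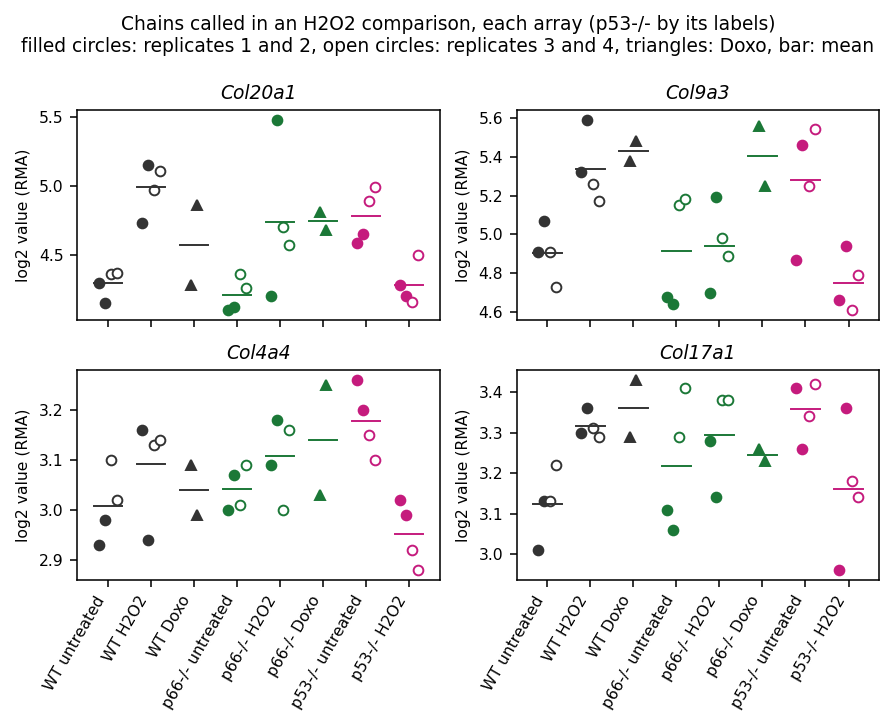
Log2 level of Col20a1, Col9a3, Col4a4 and Col17a1 on each array of the 8 groups, by the labels, with bars for group means and triangles for Doxo arrays. After H2O2, Col20a1 rises from 4.15 to 4.37 up to 4.73 to 5.15 in WT cells and runs the other way in p53-/- cells, as do the stress genes Atf3 and Gadd45a.

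The class medians after H2O2 were small. The median change of the fibrillar chains was -0.13 in WT, -0.06 in p66-/- and 0.03 in p53-/- cells by the labels, with basement membrane medians of -0.02, 0.09 and -0.01 and medians of the other chains of 0.05, -0.02 and -0.11. Replicates of 1 group differed in the median level of their fibrillar chains by an SD of 0.203, against 0.086 for basement membrane and 0.077 for other chains. Col1a2 had the widest changes, -1.09 in WT, 0.50 in p66-/- and 1.29 in p53-/- cells by the labels, and none was called without a block. With the replicate block the p53-/- changes of Col1a2 (limma adjusted p = 0.043) and Col8a1 (0.84, adjusted p = 0.021) were called by the labels, and so were their differences in response from WT, 2.38 (adjusted p = 0.0057) and 1.37 (adjusted p = 0.0048). Col1a2 was called down in WT in replicates 3 and 4 alone. WT H2O2 replicate 3 read low for Col1a2 at 3.14 and for Col8a1 at 8.73, beside 4.47 to 5.81 and 9.34 to 10.29 on the other arrays of that group.

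To compare the genotypes, the untreated and the H2O2 array of the same genotype and replicate number were averaged, which leaves 4 values for a genotype and does not depend on which p53-/- array was treated. Col18a1 was the chain with the clearest difference. Its means were 7.44 ± 0.16 in WT, 7.48 ± 0.24 in p66-/- and 6.47 ± 0.31 (SD, n = 4) in p53-/- cells. On single arrays it was at 6.14, 6.48, 6.55 and 7.03 in p53-/- cells labelled untreated and at 6.01, 6.31, 6.71 and 6.55 in those labelled H2O2, while WT cells gave 7.22, 7.28, 7.09 and 7.53 untreated and 7.40, 7.83, 7.47 and 7.67 after H2O2. All 8 p53-/- arrays lay below all 8 WT arrays. The difference, -0.96 (SE 0.16, 95% confidence interval -1.32 to -0.60), had an unadjusted p of 0.00011 and an adjusted p of 0.061 in limma, just outside the threshold. The limma adjusted p was 0.020 once replicate numbers entered the fit as blocks. That block joins preparations of different genotypes by number alone, and nothing in the labels pairs them. The difference was -1.20 within replicates 1 and 2 and -0.73 within replicates 3 and 4, so that the sign was the same in both array sets. At the threshold 0 chains were called between p53-/- and WT cells, with 2 at an unadjusted p under 0.05, when 0.257% of all genes were called. With the block 1 chain was called, Col18a1, without a share of all genes beside it.

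The other chains differed less between p53-/- and WT cells, with class medians of -0.16 (fibrillar), -0.06 (basement membrane) and -0.10 (other). Col15a1, the closest relative of Col18a1, was at 5.43 ± 0.27 in WT and 5.02 ± 0.17 in p53-/- cells, a difference of -0.41 (adjusted p = 0.46 in limma) that was -0.76 within replicates 1 and 2 and -0.06 within replicates 3 and 4. The type VI chains Col6a3 and Col6a2 were low in p53-/- replicate 2 under both labels, and Col6a1 under the H2O2 label. Col6a3 was at 9.27 and 9.02 there and at 10.98 to 11.67 on the other 6 p53-/- arrays, and Col6a2 was at 9.80 and 8.80. Col6a1 was at 8.64 under the H2O2 label and at 9.63 under the untreated label, close to the untreated group's median of 9.70. Col2a1, the fibrillar chain of cartilage, was high on replicate 2 of both WT (9.43 and 9.36) and p53-/- cells (9.0 on both), with 5.64 to 7.67 on the other WT arrays without Doxo and 5.99 to 6.70 on the other p53-/- arrays.

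Between p66-/- and WT cells 0 chains were called in limma, with 3 at an unadjusted p under 0.05, and 0% of all genes. The 3 were the type IV chains Col4a1, Col4a2 and Col4a5, while Col1a2 (0.56), Col8a1 (0.42) and Col7a1 (0.39) had differences of like size with larger errors and the type IV chains Col4a3, Col4a4 and Col4a6 differed little. Col4a1 was at 11.47 ± 0.22 in p66-/- and 11.08 ± 0.20 in WT cells, a difference of 0.40 (adjusted p = 0.88 in limma). By limma Col4a2 differed by 0.30 (adjusted p = 0.97) and Col4a5 by 0.59 (adjusted p = 0.97), and the 3 differences were above 0 in both array sets, at 0.51 and 0.29, 0.37 and 0.23, and 0.73 and 0.45. The promoter windows of Col4a1 and Col4a2 overlap by 78 bases on chromosome 8 (RefSeq, GRCm38.p6) and point away from each other. Class medians were 0.13 for fibrillar, 0.08 for basement membrane and 0.02 for other chains. None of the lists of collagen-acting genes had a member called between genotypes.

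**Figure D5:**
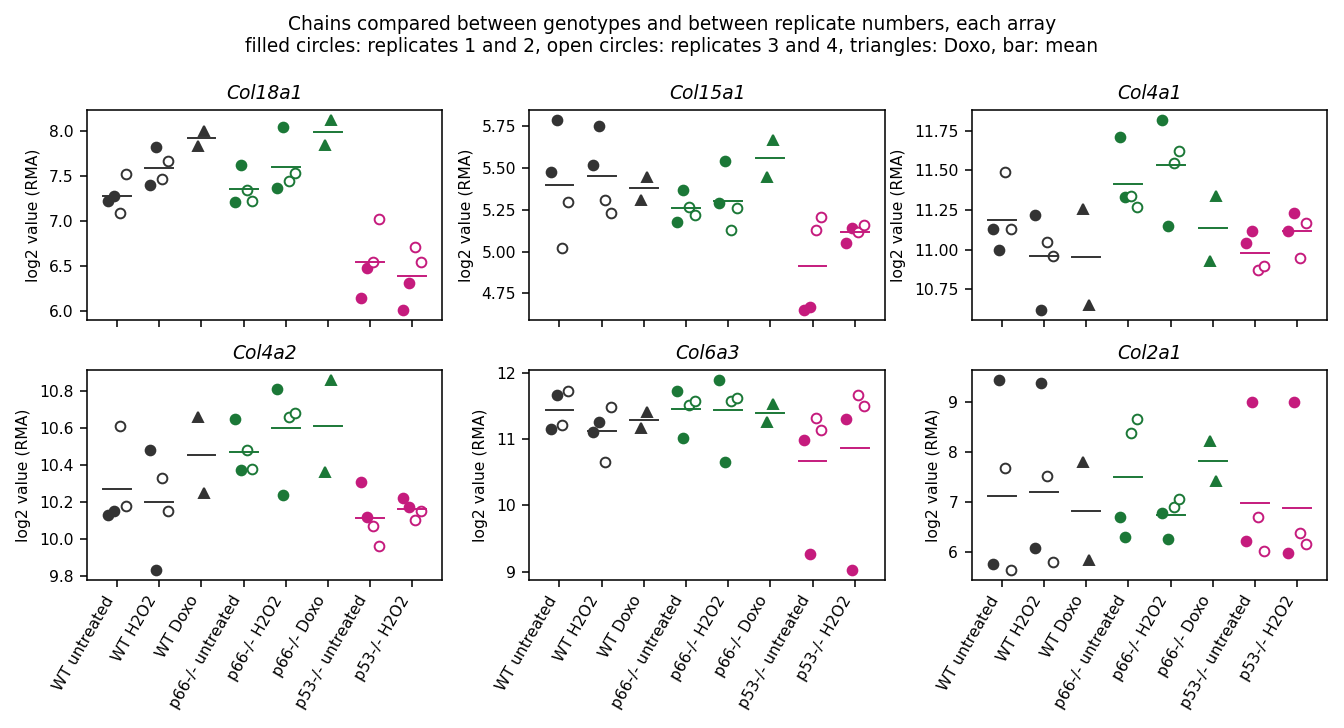
Log2 level of Col18a1, Col15a1, Col4a1, Col4a2, Col6a3 and Col2a1 on each array of the 8 groups, with bars for means and triangles for Doxo arrays. All 8 p53-/- arrays of Col18a1 lie below the WT arrays, whereas Col6a3 and Col2a1 are set apart by the arrays of replicate 2.

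The study's own threshold, an unadjusted p under 0.05 with a change of at least 1.5-fold, asks for a size of change in place of an adjustment. By it 6 chains were called in WT and 8 in p66-/- cells after Doxo, when 30.1% and 32.6% of all genes were, and 0 chains in the difference between these responses, against 0.123%. After H2O2 it called 1 chain in WT (6.21% of all genes), 0 in p66-/- (1.23%) and 2 in p53-/- cells by the labels (6.02%), and the response differed for 0 chains between p66-/- and WT (1.40%) and for 4 between p53-/- and WT (16.6%). Between genotypes it called 1 chain for p53-/- against WT, Col18a1, with 1.23% of all genes, and 1 for p66-/- against WT, Col4a5, with 0.415%.

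In most chains the largest part of the variation lay between replicate numbers of the same genotype. Over the 24 arrays without Doxo, the variance of each chain was divided into parts for genotype, treatment within genotype, replicate number within genotype and the rest, as a description without a test. The median share over the 42 chains was 53.9% for replicate number, 15.2% for genotype, 6.78% for treatment and 10.6% for the rest, on 9, 2, 3 and 9 degrees of freedom. Replicate number held the largest share in 30 chains, and genotype, treatment and the rest in 4 each. It led in 10 of 11 fibrillar chains, with 92.1% for Col2a1 and 77.4% for Col11a1, and it held 77.7% for Col6a3. Genotype led in 4 of 8 basement membrane chains, with 75.7% for Col18a1, 49.0% for Col4a1, 47.7% for Col4a2 and 42.1% for Col15a1. Treatment led in Col20a1 at 59.9%, Col4a4 at 55.3%, Col9a3 at 48.0% and Col17a1 at 39.1%. Replicate numbers stand for both the preparation and the array set, and these cannot be told apart.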

How the data were processed

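Total RNA of the 28 MEF samples was read on Affymetrix MOE430PM array strips, biotin-labelled and single-colour. Per the labels, the authors normalized the arrays by RMA in Partek 6.5 and deposited log2 expression values in 1 table, which were used as given. Array medians lay between 4.352 and 4.464, pair correlations between 0.887 and 0.9976, and no 2 arrays shared more than 21 equal values, so none was treated as a duplicate. RMA scales the arrays to each other, so a change shared by most genes can be lessened in these values. The number of arrays limits the precision, and arrays carry no read depth.

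Of 45141 probe sets, 104 controls were left out and 45037 were tested. Of those tested, 28898 had a single symbol in the platform annotation, 551 several and 15588 none, and no chain was named from the latter. Each gene was followed by its probe set with the highest mean, and the 17097 genes so chosen are the background. Group means of the 8 groups were fitted with limma 3.58.1 in R 4.3.3 (lmFit and eBayes) on all 28 arrays, with Benjamini-Hochberg adjustment over all probe sets tested, after a check on simulated data. Genotypes were compared on the mean of the untreated and H2O2 array of the same number (n = 4). Same-numbered untreated and H2O2 arrays of a genotype went together: their deviations from their group means correlated at 0.51 to 0.75. In p66-/- cells, however, H2O2 replicate 3 correlated best with untreated replicate 4, and H2O2 replicate 4 with untreated replicate 3. Doxo arrays did not pair, with -0.08 to 0.05. Nothing in the labels ties the numbers to animals, so p-values measure the spread between these preparations. The replicate block joined arrays of the same genotype and number in the treatment comparisons. Between genotypes it joined values of different genotypes that share a number.

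Lists were fixed for folding and export, cleavage and cross-linking, receptors and proteoglycans, basement membrane partners, TGF-beta signals, and markers of fibroblasts and 8 other cell types. The members and lists were chosen with earlier results of these data known. The chains named were those called in any comparison and 13 main fibroblast, basement membrane and other chains listed with the design, and of each list the called members with the lowest adjusted p. Col2a1, Col14a1, Col15a1 and Col24a1 were named after their values were seen. Promoter windows came from RefSeq (GRCm38.p6). Alternatives were the replicate or array set block, each array set alone, quantile normalization, a filter on low probe sets, the study's threshold, the methods' t-test, the mean of all probe sets of a gene, exchanged p53-/- labels, and leaving out each array. 2 more, a shift of each array to a median deviation of 0 and untreated array sets as Doxo references, were chosen after seeing the data.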

Additional observations from a re-analysis of the deposited data

Results flagged for a closer look

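In groups of 4 arrays, a single array stood far from the other 3 for 12 of 162 combinations of chain and group tested, where chance gives about 1 in 20. In p53-/- replicate 2 the beaded filament chain Col6a3 read 9.27 under the untreated and 9.02 under the H2O2 label, so the same preparation stood apart on 2 separate arrays. In p66-/- replicate 1, Col1a1 stood below the other arrays at 10.70 untreated and above them at 11.04 after H2O2, and Col4a1 stood above at 11.71 untreated and Col6a2 at 11.11 after H2O2. Replicate 2 gave Col1a2 at 7.03 in untreated p66-/- and at 6.01 in p53-/- cells labelled untreated, and Col11a2 at 4.51 in p66-/- cells after H2O2. The remaining 3 were Col4a2 at 10.61 in WT untreated replicate 3, Col4a4 at 2.94 in WT H2O2 replicate 2 and Col12a1 at 2.69 in WT H2O2 replicate 4, the last 2 being low probe sets.

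Responses to H2O2 differed between p53-/- and WT cells by the labels for Col20a1 (-1.19), Col9a3 (-0.96), Col17a1 (-0.39) and Col4a4 (-0.31), in each case by limma's test of the difference itself. The stress genes Atf3 and Gadd45a ran against the p53-/- treatment labels on the same arrays. With those labels exchanged 0 chains differed at the threshold, when 7 of 17097 genes did.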

How the results depend on the processing

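Counts are of chains called, in limma unless another test is named. Those from blocks, single array sets, other tests or left-out arrays stand without a share of all genes. After H2O2 in WT, where 1 chain was called, replicates 1 and 2 alone gave 0, replicates 3 and 4 alone gave 2 and the methods' t-test with Benjamini-Hochberg adjustment gave 0. For H2O2 in p53-/- cells by the labels, where 2 were called, the replicate block gave 4, the array set block 4, replicates 3 and 4 alone 4, and replicates 1 and 2 alone 0. Quantile normalization gave 1, leaving out low probe sets 1 (of 31 chains), the shift to a median of 0 gave 1, the compared groups alone 0, the mean of probe sets 0, and the methods' t-test 0 after adjustment and 1 at the study's threshold. After Doxo in WT, beside 13 calls, the study's threshold gave 6, the methods' t-test 8 after adjustment and 6 at the study's threshold, the shift 5 and untreated replicates 3 and 4 as reference 5. In p66-/- cells, beside 12, the adjusted t-test gave 2, the shift 7 and untreated replicates 3 and 4 gave 3. The Doxo numbers do not pair, and a replicate block there gave 17 calls in WT and 14 in p66-/- cells. For the response of p53-/- against WT, beside 4, the replicate block gave 7, replicates 1 and 2 alone 0, quantile normalization 2 and exchanged labels 0. Between p53-/- and WT, beside 0, the block on number across genotypes, replicates 3 and 4 alone, leaving out low probe sets, the study's threshold, the t-test at that threshold and the fit of all 28 arrays each gave 1. Untreated or H2O2 arrays alone gave 2 each by the labels. Replicates 3 and 4 alone called Col14a1, and the others Col18a1, joined by Col20a1 on untreated and by Col9a3 on H2O2 arrays by the labels. With the p53-/- labels exchanged, untreated arrays alone and H2O2 arrays alone each gave 0, so that Col18a1 was not called there either. Between p66-/- and WT the study's threshold and the t-test at it each gave 1.

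Class medians that moved by more than the replicate spread were, after Doxo in WT, the fibrillar one (-0.31 to -0.70 with the replicate block, -0.68 and -0.05 against untreated replicates 1 and 2 or 3 and 4), the basement membrane one (0.06 to -0.11 with the shift) and that of the other chains (0.19 to 0.11 by quantile normalization and 0.02 with the shift). In p66-/- cells the shift gave -0.08 for basement membrane and -0.12 for other chains, and untreated replicates 1 and 2 gave 0.16 for other chains. For H2O2 in p53-/- cells the basement membrane median went to 0.09 without low probe sets or low chains, and that of the other chains to 0.11 with labels exchanged. Between p53-/- and WT, basement membrane chains gave 0.09 in replicates 1 and 2 and -0.18 on untreated arrays, and other chains 0.05 in replicates 3 and 4 and 0.01 on untreated arrays. Between p66-/- and WT, basement membrane chains gave 0.21 for type IV alone, without low probe sets and without low chains, and other chains 0.10 without low chains. With the p53-/- labels exchanged Col4a4 and Col9a3 turned to 0.23 and 0.53 after H2O2, and the differences in response turned to 0.01 for Col17a1, 0.14 for Col4a4 and 0.10 for Col9a3.

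Leaving out each array gave 0 to 1 calls after H2O2 in WT (1 only without WT H2O2 replicate 1), 0 to 1 in p53-/- cells by the labels, 2 to 5 for its response against WT, 2 to 10 after Doxo in WT (2 without WT Doxo replicate 2) and 4 to 12 in p66-/- cells (4 without p66-/- Doxo replicate 2). The fibrillar Doxo median in WT ran from -0.50 to -0.05 (without WT untreated replicate 2) and the basement membrane one in p66-/- cells from -0.01 to 0.24. The cause of these changes was not tested. Arrays near background bound what can be read of the 14 low chains.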

Other observations

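Some markers of other cells were called after Doxo, when 27.0% of all genes were called up and 16.1% down in WT and 32.6% and 16.5% in p66-/- cells. Among cartilage markers Snorc and Chad were called up in WT and Snorc in p66-/- cells, among epithelial markers Krt5 and Krt14 in WT and Krt14 and Epcam in p66-/- cells, and among endothelial markers Cldn5 in both. The macrophage receptor gene Csf1r was called up in both genotypes and Ptprc, a low probe set, down in p66-/- cells. The smooth muscle myosin gene Myh11 was called down in both. In p66-/- cells 4 of 7 skeletal muscle markers (Tnnt3, Actc1, Ttn and Des) and 2 of 4 bone markers (Dmp1 and Bglap) were called up, against 0 in WT, and the difference between the genotypes was called for 0 of them. After the shift of each array to a median deviation of 0, 1 of the 7 (Tnnt3) and 0 of the 4 stayed called in p66-/- cells. Like Ptprc, the called markers Chad, Krt14, Cldn5, Tnnt3, Ttn and Dmp1 were low probe sets, so their rises lie near background. Neural markers had 0 calls after Doxo in either genotype in limma. After H2O2, Twist1 and the smooth muscle gene Lmod1 were called down in WT cells, and Lmod1 up in p53-/- cells by the labels.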
